A study of Mus musculus with 9 samples.

Results

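The 8 genes Sox9, Snai2, Zeb1, Zeb2, Twist1, Axl, Ngfr and Egfr form a set named for the neural crest and dedifferentiated melanoma. Membership does not mean that a gene marks the dedifferentiated state, so an open site is not read as a sign of that state. The surroundings of the 8 genes were examined for open chromatin. Every ATAC-seq peak that overlapped the body of 1 of these genes or lay within 50 kb of it was collected. This gave 87 of the 137541 peaks in the lists, which merged into 23 of the 32649 regions of the genome with a peak in any library. ATAC-seq marks accessible DNA by the cuts of a transposase, and a peak is a stretch where sequenced fragments pile up above the local background. The cells were of the mouse melanoma line B16, injected into mice and sorted from tumours taken on day 15. B16_IFNg is B16 exposed to chronic IFNy (interferon gamma) before injection, for 2 weeks in replicates 1 and 2 and for 3 weeks in replicate 3. Res499 is strain 499, which was derived from B16 and resists checkpoint blockade, and it had no treatment. B16_untreated is B16 with no treatment. Each group had 3 libraries, and the labels do not tell whether each library stands for its own mouse. Peaks came from sorted cell populations, so a difference in how open a site is per cell and a difference in the share of cells with the site open cannot be told apart.

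In the embryo, neural crest cells leave the neural tube through a transition in which epithelial cells become migratory, and melanocytes arise from them. Sox9 is a SOX family transcription factor of the early crest and of cartilage. Snai2, Zeb1, Zeb2 and Twist1 are transcription factors of the same transition, of which the SNAI and ZEB factors are repressors of E-cadherin. Axl, a receptor tyrosine kinase for Gas6, Ngfr, the low affinity neurotrophin receptor, and Egfr, the epidermal growth factor receptor, mark melanoma cells that have lost the melanocyte programme.

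The lists held 16240, 13175 and 11183 peaks in B16_IFNg replicates 1 to 3, 15396, 9221 and 11768 in Res499 and 15045, 25374 and 20139 in B16_untreated. They give no read totals, so depth in reads is unknown. Because a longer list holds weaker peaks, groups were compared over the 9214 most significant peaks per library, called here the equal-length lists. The shortest peak of a list was at least 150 bp in B16_IFNg replicate 3, Res499 replicate 3 and B16_untreated replicates 1 and 3 (the long fragment class) and shorter in the other 5 libraries (the short class). The classes rest on this peak width alone, and fragment lengths were not measured. Of 7 melanoma cell markers, Pmel, Dct and Mitf had a peak at most 1 kb from either gene end in all 9 libraries, and Mlana and Sox10 in 1 each. Tyr had one in 3 B16_IFNg, 1 Res499 and 3 B16_untreated libraries, and Tyrp1 in 2, 1 and 3 libraries of these groups. A region at the Tyrp1 end was absent from every Res499 equal-length list and present in each of B16_untreated, as for 0.201% of coding genes, and at most 1 of the 6 B16_IFNg and Res499 lists held it (0.105%). No library had such a peak at any of 6 leukocyte or 4 endothelial markers, and of 5 fibroblast markers Col1a1 alone had one, in 3 B16_IFNg, 1 Res499 and 3 B16_untreated libraries.

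Open chromatin was unevenly spread over the 8 genes. Snai2 and Sox9 had a recurrent peak at their own gene end, in 9 and 8 of the 9 libraries. The receptor genes Axl and Egfr had their recurrent peaks on the promoters of neighbouring genes. Zeb1 and Egfr had no peak inside gene bodies of 184142 bp and 161705 bp in any library, and Twist1 had none inside its 2161 bp. Of all 21887 coding genes, 26.4% had an end peak (at most 1 kb from either end) in all 9 full lists and 49.4% had none in any list. Among the 8 genes Snai2 fell in the first class, Zeb1, Twist1 and Egfr in the second, and Sox9 (8 libraries), Axl (6), Zeb2 (3) and Ngfr (1) between them. The 6 Axl libraries owe their call to the Hnrnpul1 promoter site, which reaches close to the lower-coordinate end of Axl.

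The 23 regions recurred about as often as regions of the genome at large. Of them 9 were called in 1 library, 10 in 2 to 8 libraries and 4 in all 9, against 36.8%, 44.3% and 18.9% of all 32649 regions. B16_untreated libraries, of which replicates 2 and 3 have the longest lists, alone held 6 of the 23, against 31.3% of all regions. Another 5 had no peak in B16_untreated, against 13.6%. The libraries held 10, 8 and 8 peaks near the genes in B16_IFNg, 11, 5 and 8 in Res499, and 7, 16 and 14 in B16_untreated. In the equal-length lists these counts were 5, 7 and 8 in B16_IFNg, 6, 5 and 5 in Res499, and 5, 5 and 4 in B16_untreated. The spread over B16_untreated in the full lists follows its list lengths, with the fewest peaks near the genes in its shortest list. The map of calls by library shows 4 unbroken rows, those of the Snai2 end, the site above Zeb1 and the Hnrnpul1 and Fbxo48 promoters.

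**Figure D1:**
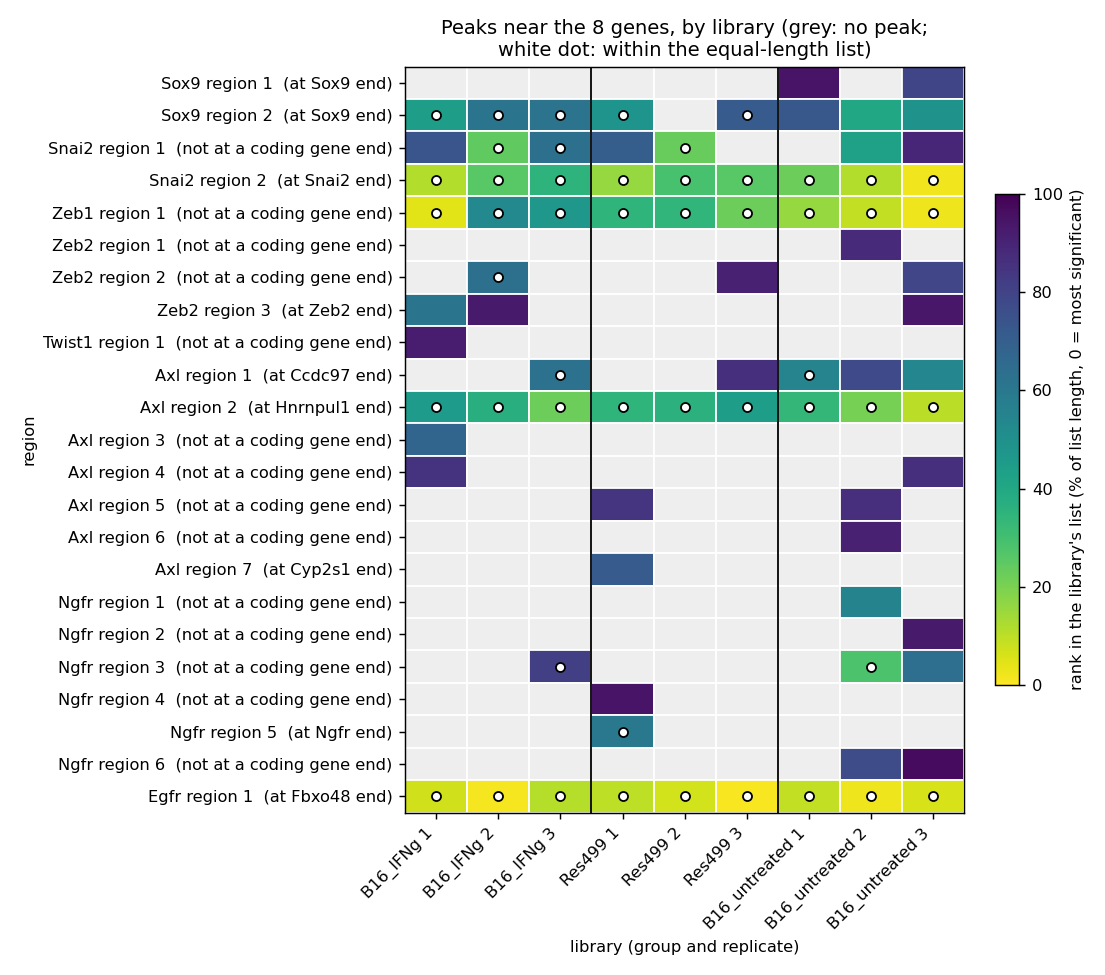
Each row is 1 of the 23 regions near the 8 genes and each column 1 library, with colour giving the rank of the best peak by its p-value as a percent of the library's list length. Grey cells have no peak and white dots mark peaks inside the equal-length lists; 4 rows are filled in all 9 libraries.

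**Figure D2:**
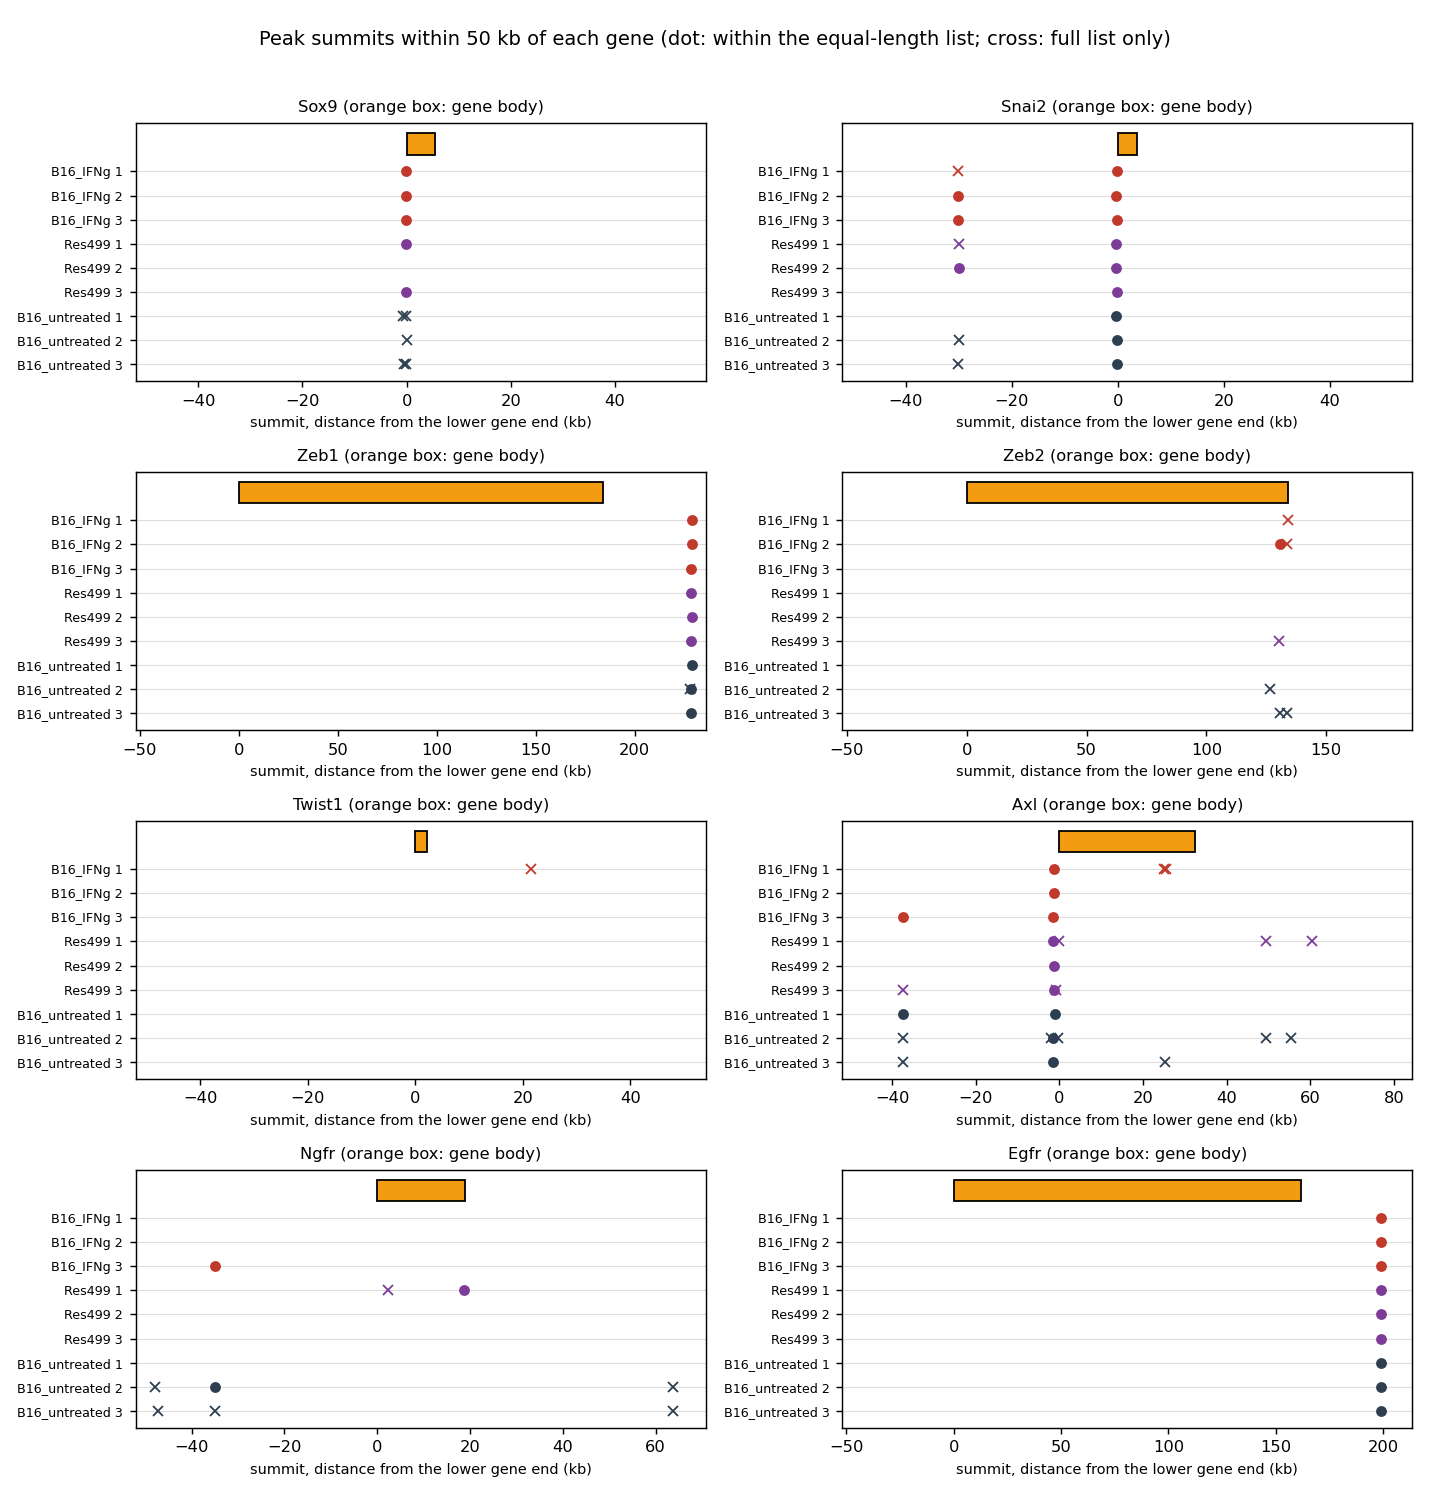
Peak summits of each library in the window of each gene, as distance in kb from the gene end with the lower coordinate, with the gene body as an orange box. Dots are peaks inside the equal-length lists and crosses peaks of the full list only; no summit lies in the boxes of Zeb1, Twist1 and Egfr.

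RefSeq promoter windows of 300 bases on GRCm38.p6, from 250 before to 50 after a start, were matched for 5 of the 8 genes. The windows of Axl, Egfr, Twist1 and Ngfr had no peak in any library, while those of the neighbours Hnrnpul1 and Fbxo48 were under a peak in all 9. The sequences are shown to set promoters of the receptor and transition factor genes that lack a peak beside those of neighbours that carry one, with bases under a peak of at least 1 library in capitals. Each is given on its gene's strand. Axl lies at chr7:25788684-25788983 (minus strand), Hnrnpul1 at chr7:25754710-25755009 (minus), Egfr at chr11:16751953-16752252 (plus), Fbxo48 at chr11:16951125-16951424 (plus), Twist1 at chr12:33957421-33957720 (plus), Ngfr at chr11:95587649-95587948 (minus) and the outermost of 4 Zeb2 windows at chr2:45117393-45117692 (minus).
Axl: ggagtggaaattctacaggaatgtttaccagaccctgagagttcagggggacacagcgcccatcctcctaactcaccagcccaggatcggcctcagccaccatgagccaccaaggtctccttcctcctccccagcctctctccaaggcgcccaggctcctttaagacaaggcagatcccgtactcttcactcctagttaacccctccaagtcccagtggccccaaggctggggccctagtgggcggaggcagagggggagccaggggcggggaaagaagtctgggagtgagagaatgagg
Hnrnpul1: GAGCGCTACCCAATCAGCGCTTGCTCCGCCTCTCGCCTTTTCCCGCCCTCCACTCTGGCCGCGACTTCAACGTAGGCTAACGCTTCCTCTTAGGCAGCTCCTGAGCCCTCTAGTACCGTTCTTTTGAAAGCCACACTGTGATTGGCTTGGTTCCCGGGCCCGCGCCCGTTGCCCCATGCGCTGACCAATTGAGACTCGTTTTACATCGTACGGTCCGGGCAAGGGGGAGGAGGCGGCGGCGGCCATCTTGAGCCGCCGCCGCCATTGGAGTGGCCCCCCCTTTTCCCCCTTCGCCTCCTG
Egfr: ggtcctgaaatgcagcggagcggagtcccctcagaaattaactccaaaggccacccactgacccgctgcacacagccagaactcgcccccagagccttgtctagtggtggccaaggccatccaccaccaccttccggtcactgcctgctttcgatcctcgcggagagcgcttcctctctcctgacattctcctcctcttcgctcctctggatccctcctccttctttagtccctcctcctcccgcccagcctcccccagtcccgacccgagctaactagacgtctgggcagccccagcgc
Fbxo48: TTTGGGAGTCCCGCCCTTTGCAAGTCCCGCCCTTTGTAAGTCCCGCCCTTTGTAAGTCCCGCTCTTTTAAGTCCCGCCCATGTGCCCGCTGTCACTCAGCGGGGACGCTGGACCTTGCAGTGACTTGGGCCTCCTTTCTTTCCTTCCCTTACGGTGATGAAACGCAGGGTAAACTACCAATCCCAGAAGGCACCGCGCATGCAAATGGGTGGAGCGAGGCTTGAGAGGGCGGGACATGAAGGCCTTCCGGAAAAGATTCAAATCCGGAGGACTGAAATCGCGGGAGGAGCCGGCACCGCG
Twist1: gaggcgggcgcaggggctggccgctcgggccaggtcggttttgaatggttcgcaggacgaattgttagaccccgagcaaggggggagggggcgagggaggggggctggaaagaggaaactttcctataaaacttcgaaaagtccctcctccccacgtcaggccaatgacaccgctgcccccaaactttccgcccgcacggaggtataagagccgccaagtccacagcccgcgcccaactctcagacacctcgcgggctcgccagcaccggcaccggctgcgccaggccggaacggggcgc
Ngfr: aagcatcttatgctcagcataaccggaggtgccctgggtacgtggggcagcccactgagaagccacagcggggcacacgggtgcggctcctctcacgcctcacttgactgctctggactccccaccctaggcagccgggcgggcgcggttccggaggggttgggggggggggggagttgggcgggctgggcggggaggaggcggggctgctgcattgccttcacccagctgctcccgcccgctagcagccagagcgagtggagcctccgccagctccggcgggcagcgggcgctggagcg
Zeb2: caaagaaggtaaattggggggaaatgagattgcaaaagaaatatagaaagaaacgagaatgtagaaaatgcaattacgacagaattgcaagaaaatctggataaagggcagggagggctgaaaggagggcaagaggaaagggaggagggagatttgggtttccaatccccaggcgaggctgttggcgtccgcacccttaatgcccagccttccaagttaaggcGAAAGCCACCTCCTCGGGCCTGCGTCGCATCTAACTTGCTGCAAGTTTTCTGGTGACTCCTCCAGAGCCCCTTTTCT

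These windows differ in CpG content, which goes with open promoters across the genome. Of 32851 windows of 27025 genes, 42.8% of those with a CpG observed over expected ratio of at least 0.6 were under a peak in all 9 libraries and 21.1% in none. Of the windows with a lower ratio 2.49% were under a peak in all 9 and 88.0% in none. The Axl window had a ratio of 0.22 and the Egfr window 0.59, against 0.89 for Hnrnpul1 and 0.81 for Fbxo48. Twist1, at 0.83, had a ratio between those of these neighbours and no peak in any library, where 14.1% of windows with a ratio of at least 0.8 had none. Ngfr had 0.61, and the 4 Zeb2 windows had ratios between 0.42 and 0.69.

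**Figure D3:**
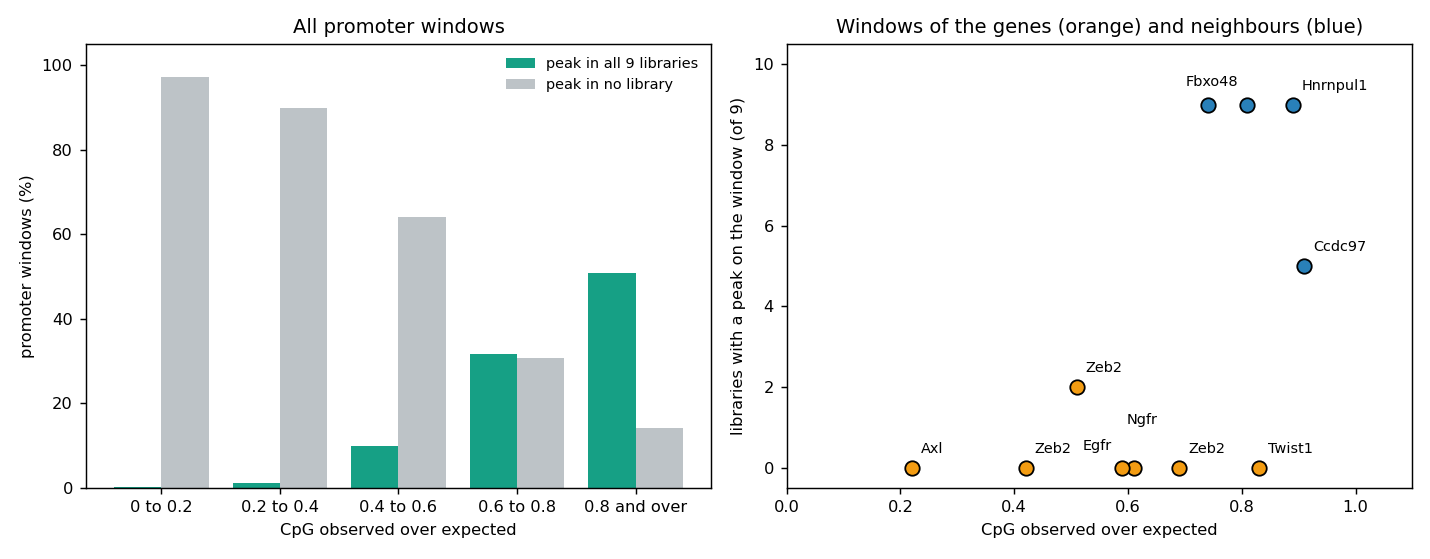
Left, the percent of all promoter windows under a peak in all 9 libraries or in none, by bins of CpG observed over expected. Right, each window of the genes (orange) and their neighbours (blue) by its ratio and the number of libraries with a peak on it; Twist1 stands at 0.83 with 0 libraries and Hnrnpul1 at 0.89 with 9.

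A search of both strands for 8 motifs found few matches in the member windows. The Zeb2 window at chr2:45110228-45110527 held 2 matches to the AP-1 motif (TGACTCA or TGAGTCA), which 5.2% of all windows hold, with 1 SOX match (ACAAAG or ACAATG, 28.6% of windows) and 1 TEAD match (GGAATG, 14.7%). The Axl window held 1 TEAD match, and a pair of overlapping Zeb2 windows shared 1 GAS match (TTCNNNGAA, 8.3%). The Twist1, Ngfr and Egfr windows and the Zeb2 window shown above held no match to these motifs, to the E-boxes CACCTG and CATCTG, to the M-box TCACGTG or to the interferon response motif.

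Sox9 was open at its lower-coordinate end (chromosome 11, 112781901 to 112782956, gene 112782210 to 112787757). The fold enrichment of the peak over the local background, as the authors' files give it for this and every region below, was 6.73, 5.65 and 4.95 in B16_IFNg, 5.78 and 4.82 in Res499 replicates 1 and 3, and 4.49, 6.90 and 5.73 in B16_untreated. Res499 replicate 2, the shortest list, had no peak. By p-value the peaks ranked 7285, 8131 and 6906 in the B16_IFNg lists, 7413 and 8409 in the Res499 lists, and 10931, 10296 and 9917 in the B16_untreated lists. The B16_untreated peaks thus fell beyond the first 9214 of their lists, while their folds lay on both sides of those of the other groups. The −log10 p itself was 12.06, 8.83 and 9.64 in B16_IFNg, 10.44 and 8.74 in Res499, and 9.96, 14.93 and 14.22 in B16_untreated. The summits held 16, 12 and 18 fragments in B16_IFNg, 16 and 16 in Res499 and 22, 22 and 26 in B16_untreated, and all lay within 122 bp of each other. A second small peak at chromosome 11, 112781380 to 112781710 was called in B16_untreated replicates 1 and 3 alone, with folds of 3.52 and 4.21.

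In the equal-length lists the Sox9 end was called in all 3 B16_IFNg libraries, 2 Res499 libraries and no B16_untreated library. It was the only 1 of 5 member regions counted that was called in every B16_IFNg library and in none of B16_untreated. This pattern was shown by 0.59% of 9495 regions of the genome. The other 4 were called in all 9 lists and could show neither it nor the reverse. The reverse pattern was seen in 0 of the 5 member regions and 0.906% of all. With B16_IFNg and Res499 combined, Sox9 was also the 1 of 6 member regions called in at least 5 of the 6 libraries and in none of B16_untreated, against 0.515% of 10680 regions. The pattern of at most 1 of 6 with all B16_untreated libraries had no member region, against 0.899%. Of the 6 member regions 4 were in all 9 lists. Sox9 and the second Snai2 site described below were in no B16_untreated list, so none of the 6 could show this pattern. In the long fragment class the Sox9 end was in the lists of B16_IFNg replicate 3 and Res499 replicate 3 and in neither B16_untreated list. In the short class it was in both B16_IFNg lists and 1 of 2 Res499 lists and not in that of B16_untreated. This split is no separate check, since the call itself requires that no B16_untreated list holds the region. Over all deposited peaks the call was gone, since all 3 B16_untreated lists have the peak below rank 9214. The call was also gone at 4607 peaks per library, a limit that every Sox9 peak ranks beyond.

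**Figure D4:**
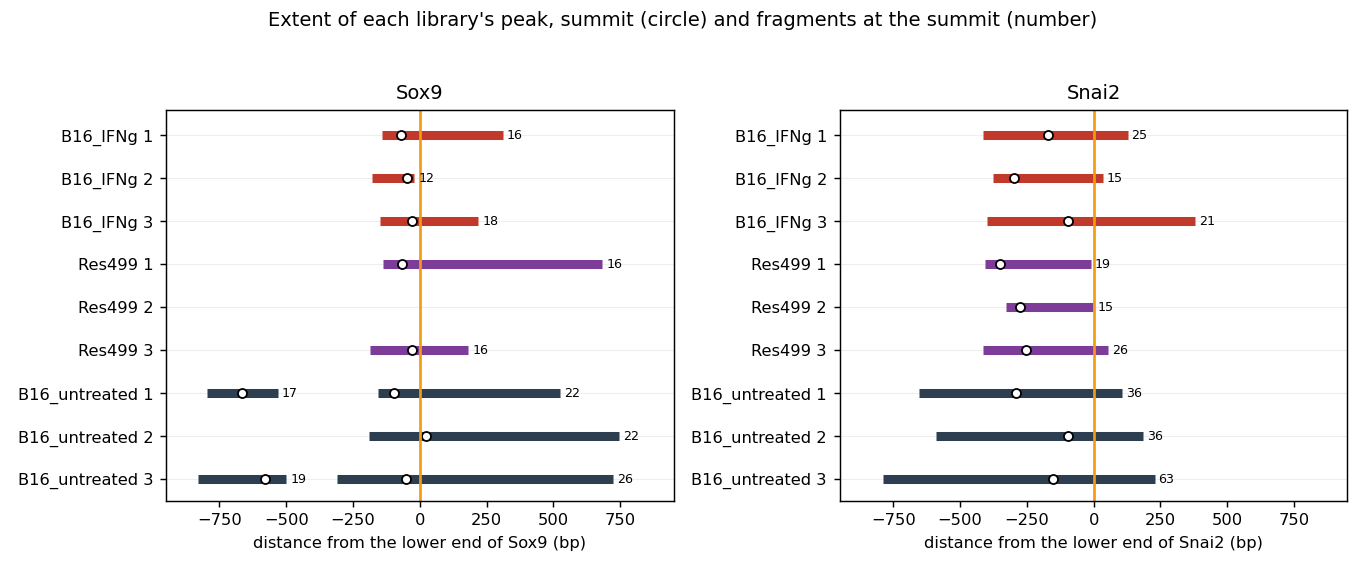
Extent of each library's peaks around the lower-coordinate end of Sox9 (left) and of Snai2 (right), in bp from that end, with circles at the summits and the number of fragments there beside each bar. The Sox9 summits hold 12 to 26 fragments and the Snai2 summits 15 to 63.

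Snai2 had the most robust site at a member's own end (chromosome 16, 14705064 to 14706232, gene 14705852 to 14709395). Its folds were 9.87, 8.16 and 6.27 in B16_IFNg, 9.18, 7.06 and 6.23 in Res499, and 6.96, 12.63 and 13.26 in B16_untreated. The ranks were 1881, 3430 and 3942 in B16_IFNg, 2435, 2689 and 3034 in Res499, and 3379, 2967 and 436 in B16_untreated. The groups overlapped, and B16_untreated replicate 3 stood highest with 63 fragments at its summit. In the equal-length lists the mean rank was 3077 ± 1076 in B16_IFNg, 2712 ± 305 in Res499 and 2255 ± 1592 in B16_untreated (SD, n = 3 each). B16_IFNg and Res499 together minus B16_untreated gave 639.3 places, where a positive value is a worse rank (exact permutation test, two-sided, 84 arrangements, p = 0.429), and 611.6 within fragment classes (exact permutation p = 0.667). Without B16_untreated replicate 3 the difference was -271.8 places (exact permutation p = 0.714).

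A second Snai2 site lay 28643 bp below the gene (chromosome 16, 14675029 to 14677209), with no other coding gene end nearer. Its peaks were broad and shallow, with widths of 1600, 1997 and 975 bp in B16_IFNg, 1842 and 1745 bp in Res499 replicates 1 and 2, and 2153 and 1069 bp in B16_untreated replicates 2 and 3. Library medians for all peaks lay between 289 and 517 bp. The summits held 10 to 15 fragments. The folds were 5.45, 8.60 and 5.81 in B16_IFNg, 5.29 and 7.68 in Res499 and 8.46 and 4.64 in B16_untreated. The ranks were 11970, 3212 and 7116 in B16_IFNg, 10870 and 2127 in Res499, and 10951 and 17969 in B16_untreated. In the equal-length lists it was held by B16_IFNg replicates 2 and 3 and Res499 replicate 2, and by no B16_untreated library.

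Zeb1 had no peak in its body or at its ends, and its window held a strong site 43558 bp above the gene, with no other coding gene end nearer (chromosome 18, 5819026 to 5820483). The folds were 11.98, 6.23 and 5.74 in B16_IFNg, 7.08, 6.64 and 6.78 in Res499, and 7.85, 12.19 and 12.20 in B16_untreated. The ranks were 698, 6955 and 5213 in B16_IFNg, 5353, 3172 and 2650 in Res499, and 2402, 2283 and 492 in B16_untreated. In the equal-length lists every Res499 library ranked the site below every B16_untreated library, as was so at 6.14% of 4481 regions. The nearest ranks there were 2647 in Res499 replicate 3 and 2399 in B16_untreated replicate 1. B16_IFNg replicate 1 stood within the B16_untreated range. The mean rank there was 4281 ± 3229 in B16_IFNg, 3718 ± 1430 in Res499 and 1720 ± 1068 in B16_untreated (SD, n = 3 each). The difference of 2279.2 places between B16_IFNg with Res499 and B16_untreated had a two-sided exact permutation p of 0.167, and an adjusted p of 0.993 by Benjamini-Hochberg over 4481 regions. Within fragment classes the difference was 2123.4 places (exact permutation p = 0.267). Leaving out B16_IFNg replicate 1 gave 2941.3 (exact permutation p = 0.0357, adjusted p = 0.962), the smallest p of the single omissions. Omitting any other library gave an exact permutation p between 0.125 and 0.321.

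Zeb2 had 3 faint regions towards the upper-coordinate end of its body, none in more than 3 libraries. At the upper-coordinate end (chromosome 2, 45117136 to 45117469, gene 44983512 to 45117442), where peaks cover 77 bases of the promoter window printed above, the folds were 5.41 and 4.33 in B16_IFNg replicates 1 and 2 and 3.52 in B16_untreated replicate 3. The ranks were 9995 and 12263 in B16_IFNg and 18926 in B16_untreated, with 9 to 16 fragments at the summits. No Res499 library had it. A region 3315 bp from that end, which overlaps the antisense transcript Zeb2os (45113842 to 45114127), was called in 1 library of each group: B16_IFNg replicate 2 (fold 5.31, rank 8350), Res499 replicate 3 (fold 3.41, rank 10702) and B16_untreated replicate 3 (fold 3.97, rank 15910). The third, at 45109829 to 45109964, had a fold of 4.18 in B16_untreated replicate 2 at rank 22352.

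Twist1 had a single peak in its window, 19316 bp above the gene (chromosome 12, 33979147 to 33979285), in B16_IFNg replicate 1. It had 8 fragments at the summit, a fold of 4.46 and rank 14947 of 16240. Its gene end was thus without a call in all 9 libraries.

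Axl lies between Hnrnpul1, an RNA-binding protein gene, and the cytochrome P450 gene Cyp2s1. The promoter window of Axl and the rest of its upper-coordinate end had no peak. The recurrent site of its window was the promoter of Hnrnpul1, 139 bp below the lower-coordinate end of Axl (chromosome 7, 25754392 to 25756361, Axl 25756500 to 25788924). Its folds were 5.94, 6.41 and 6.11 in B16_IFNg, 5.91, 5.81 and 4.42 in Res499, and 4.93, 8.54 and 8.05 in B16_untreated. The ranks were 7428, 4860 and 2499 in B16_IFNg, 5362, 3341 and 5268 in Res499, and 5096, 5275 and 2096 in B16_untreated. The groups overlapped. In the equal-length lists the mean rank was 4921 ± 2462 in B16_IFNg, 4650 ± 1141 in Res499 and 4150 ± 1784 in B16_untreated (SD, n = 3 each; difference of B16_IFNg with Res499 from B16_untreated 635.3 places, exact permutation p = 0.631). Within fragment classes that difference was 130.5 places (exact permutation p = 0.767). It changed sign to -393.3 when B16_untreated replicate 3 was left out (exact permutation p = 0.821). Inside the Axl body, B16_IFNg replicate 1 had peaks 7290 bp (25781415 to 25781634, fold 5.62, rank 10999) and 6781 bp (25781794 to 25782143, fold 4.78, rank 13870) from the upper end, and B16_untreated replicate 3 shared the second (fold 4.62, rank 17312). No Res499 library had a peak inside Axl.

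The other Axl window sites belonged to neighbours. The promoter of Ccdc97, 37205 bp from Axl (25718824 to 25719295), was called in B16_IFNg replicate 3 (fold 5.49, rank 6957), Res499 replicate 3 (fold 4.13, rank 10156) and all 3 B16_untreated libraries (folds 5.72, 4.93 and 6.51, ranks 8246, 19693 and 10920). Those were all 4 libraries of the long fragment class and 1 of the 5 of the short class, so these calls moved with the class, whose part in them was not tested. The 3 sites in or next to Cyp2s1 were called in 1 or 2 libraries, with folds between 4.45 and 5.29 and ranks between 11007 and 23065.

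Ngfr had 6 regions and none in more than 3 libraries. At its upper-coordinate end a peak was called in Res499 replicate 1 alone (chromosome 11, 95587293 to 95587634, gene 95568818 to 95587698), with a fold of 5.61, rank 9216 of 15396 and 12 fragments at the summit. It stopped short of the promoter window. The same library had the only other peak in the body (95571216 to 95571318, fold 4.32, rank 14586). A site 34611 bp below the gene (95533715 to 95534207), towards Nxph3, had a fold of 4.98 in B16_IFNg replicate 3 at rank 9114, and of 9.84 and 5.76 in B16_untreated replicates 2 and 3 at ranks 7184 and 12941. No Res499 library had that site. The remaining 3 sites, at 95520839 to 95520985, 95521340 to 95521583 and 95632446 to 95632798, were called in B16_untreated replicates 2 and 3 only, with folds between 4.05 and 6.61 and ranks between 14039 and 19620.

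Egfr had no peak at its ends or in its body, which also holds the lncRNA genes Egfros and Gm39584. The 1 site of its window was the promoter of Fbxo48, 37010 bp above the gene (chromosome 11, 16950917 to 16951628, Egfr 16752203 to 16913907), which overlaps the lncRNA gene Eldr. Its mean rank was the best of the recurrent sites, with folds of 10.35, 13.69 and 7.93 in B16_IFNg, 9.12, 8.99 and 9.97 in Res499, and 8.73, 17.08 and 10.65 in B16_untreated. The ranks were 1171, 177 and 1267 in B16_IFNg, 1531, 637 and 126 in Res499, and 1367, 679 and 1188 in B16_untreated. The groups overlapped, with mean ranks in the equal-length lists of 865 ± 606 in B16_IFNg, 758 ± 707 in Res499 and 1073 ± 361 in B16_untreated (SD, n = 3 each). B16_IFNg with Res499 differed from B16_untreated by -261.5 places (exact permutation p = 0.536), and by -189.9 within fragment classes (exact permutation p = 0.633).

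**Figure D5:**
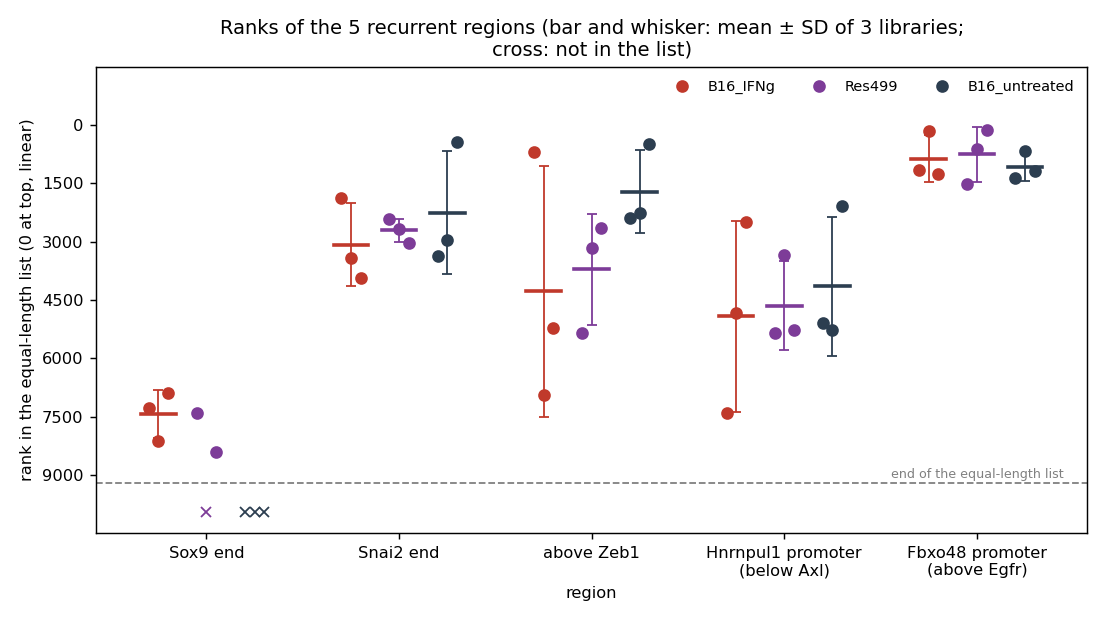
Rank of the 5 recurrent regions in the equal-length list of each library, with rank 0 at the top, bars and whiskers for the mean ± SD of 3 libraries, and crosses for libraries whose list lacks the region. The Sox9 end is inside the lists of B16_IFNg and of 2 Res499 libraries and outside those of B16_untreated.

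The contrast of Res499 with B16_untreated asks what sets the resistant strain apart. No member region among the 4 counted was called in all Res499 and no B16_untreated libraries (0.919% of 9360 regions of the genome) or the reverse (1.52%). All 9 equal-length lists held these 4, so neither pattern could occur among them. Between Res499 and B16_IFNg, 0 of 6 were called in Res499 alone (0.627% of 9254 regions) and 0 in B16_IFNg alone (0.875%). Each of the 6 had a call in both groups, so here too neither pattern could occur. The Sox9 end was called in all Res499 lists and no B16_untreated list once Res499 replicate 2 was left out, as were 2.05% of all regions. That library was the only Res499 one without the Sox9 peak, so leaving it out fixed this call. Leaving out any other library gave 0.

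Ranks could be compared at the 4 member sites that all 9 equal-length lists held, among 4481 such regions. For B16_IFNg against B16_untreated, 0 of the 4 sites had ranks that did not overlap, where 5.22% of all regions were better in every B16_IFNg library and 4.89% worse. For Res499 against B16_untreated, the site above Zeb1 was worse in every Res499 library and none was better, where 6.14% and 5.69% of all regions were. The Zeb1 ranks overlapped when peaks were ranked by fold. At 4607 peaks per library the site could not be compared, since 3 lists no longer held it. For Res499 against B16_IFNg, 0 of the 4 did not overlap, against 5.04% better and 5.51% worse among all regions. A comparison of 3 with 3 libraries cannot go below an exact p of 0.1. For B16_IFNg and Res499 together against B16_untreated, an exact permutation test with Benjamini-Hochberg adjustment called 0% of the 4481 regions (208 had an unadjusted exact p under 0.05, or 4.64%, where the smallest possible is 0.0119), and the 4 member sites had an adjusted p of 0.993 each.

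Peaks were narrower in Res499 than in B16_untreated at 3 of these 4 sites. Every Res499 library had fewer bases under its peaks than every B16_untreated library at the Snai2 end, the site above Zeb1 and the Hnrnpul1 promoter, and this was so at 41.8% of the 6166 regions with a peak in all 9 full lists. At the Snai2 end the widths were 398, 328 and 468 bp in Res499 and 764, 775 and 1017 bp in B16_untreated. Every B16_IFNg library was narrower than B16_untreated at the Fbxo48 promoter only, with 529, 466 and 384 bp against 618, 702 and 593 bp, and 35.2% of regions were so. At the Fbxo48 promoter the Res499 widths, 373, 396 and 660 bp, overlapped those of B16_untreated. Narrower peaks were therefore common over the genome, and widths were compared only after the values had been seen. Over all peaks the median width was 304, 329 and 432 bp in Res499 and 493, 300 and 517 bp in B16_untreated. It was higher in the long fragment class, which held Res499 replicate 3 and B16_untreated replicates 1 and 3. The part of class and of list length in these widths was not tested.

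Ligands, partners and other genes of these pathways were read from a list of 74 genes. Of them 13, or 17.6%, had an end peak in all 9 full lists, 26 in 1 to 8 and 35 in none, against the 26.4% and 49.4% of all coding genes above. Named here after their values were seen, the 13 were Erbb3 and Shc1, a partner receptor and an adaptor of Egfr, the SOX factors Sox4 and Sox11, the E proteins Tcf3 and Tcf12, N-cadherin (Cdh2), vimentin (Vim), the ZEB corepressors Ctbp1 and Ctbp2, and Tgfbr1, Smad2 and Smad4 of TGF-beta signalling. None of 8 Ngfr ligands and partners and none of 4 Axl ligands and partners was among them. Gas6, the ligand of Axl, the neurotrophins Bdnf and Ntf3, the Egfr ligands Egf, Areg, Ereg and Epgn, and E-cadherin (Cdh1) had no such peak in any library. Nor had Cdh11, Prrx1, Twist2, Grhl2 and Ovol2, listed with E-cadherin as factors and markers of the transition, or 10 of the 20 neural crest factors. These genes are among the 35 and were named after their values were seen. Of the other Egfr ligands Hbegf had an end peak in 2 B16_IFNg, 0 Res499 and 3 B16_untreated libraries, Tgfa in 2 libraries and Btc in 1. By the rules used for the members, 0 of the 74 genes had a changed end in any of the 4 comparisons, where 0.105% to 0.306% of coding genes had one in a given direction.

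By the measure of likeness used, Spearman's rho of ranks over the 9 libraries among gene-end regions, the Sox9 end was closest to Fbxo21 and Tmem150a (rho 0.94 each) and the Snai2 end to Galnt7 (0.93) and Arfip2 (0.92). The broad Snai2 site was closest to Farsa and Stat6 (1.0 each), with 6 of its 9 values tied as not called. The site above Zeb1 was closest to Trim9 and Acoxl (0.95 each), the Hnrnpul1 promoter to Foxp1 (0.94) and Wdr73 (0.91), and the Fbxo48 promoter to Map2k7 (0.97) and Msantd4 (0.95). The 9 libraries share depth and fragment class in these values, and each gene was picked from 7307 or 7308 candidates.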

How the data were processed

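Open chromatin was measured by ATAC-seq in 9 libraries of 3 groups. CASAVA, cutadapt 1.9, Bowtie2 2.2.4 and MACS2, with build GRCm38 (mm10), are named in the submitters' processing notes. How MACS2 was set, its version, and whether reads were shifted for the transposase are not given in the sources used here, and an absent shift would move edges by a few bases. Each deposited file lists the peaks of 1 library in 10 columns without a header, from positions counted from 0, printed here from 1. The deposited score is 10 times the −log10 q. The fold is a deposited ratio of summit to local background, and the −log10 p and −log10 q are the authors' values from the caller. These were used within a list only.

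Fold and −log10 p fix the whole number of fragments at a summit, recovered within 0.01 for all 87 peaks; fragments are not scaled between libraries. Peaks of the autosomes and of X and Y were ranked by −log10 p, and the best 9214, the length of the shortest list, were kept per library. Peaks that overlap or touch formed regions. Regions counted for a changed call are those called in at least as many of the compared libraries as a group holds. They include regions called in both groups, which could not change. Gene ends came from a RefSeq table of GRCm38.p6, without strand or exons, and promoter windows from RefSeq for GRCm38.p6. Sox9, Snai2 and Zeb1 had no promoter window. Rank tests were two-sided exact permutation tests over libraries, adjusted over all regions, and were tested on simulated ranks. The p-values measure the spread between these libraries, which may be technical. Python 3.11.15, numpy 2.4.6, pandas 2.3.3 and scipy 1.17.1 were used.

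The genes, lists and rules were chosen with earlier results of these data known. The rule for named genes takes all regions of the 8 genes, and the 2 gene-end regions most like each region held by at least 3 equal-length lists. Alternatives were all deposited peaks, 4607 peaks, ranking by fold, merging within 250 bp, 50% cover, another calling rule, 10 kb windows, the replicate number as a block, fragment classes and each library left out.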

Additional observations from a re-analysis of the deposited data

How the results depend on the processing

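For the main counts 114 alternative values stayed within 1.5 times and 20 did not. The 114 include counts of 0 that stayed 0 and omissions of libraries outside the comparison. For single sites 63 kept direction and, for ranks, side of the threshold, and 3 reversed. Adjusted p of the ranked single sites was at least 0.938 in every alternative. The tests had 27 to 84 arrangements, and the smallest possible exact p was 0.0119 even at 84. After adjustment over all regions 1 site could hardly pass alone, so these values say little about stability. For B16_IFNg against B16_untreated, the 1 changed member region (Sox9) became 0 over all deposited peaks, at 4607 peaks and with 50% cover. The count became 2 gained (Sox9 and the broad Snai2 site) when 1 library may miss, where 3.54% of all regions were gained. Leaving out libraries gave 1 to 2, the 2 without B16_IFNg replicate 1, where 1.5% of all regions were gained. For Res499 against B16_untreated, the 0 became 2 lost with 50% cover (Snai2 and Zeb1, where Res499 peaks are narrower). With that cover 7.96% of all regions were lost. When 1 library may miss, 1 region (Sox9) was gained, as were 4.39% of all regions. Leaving out libraries gave 0 to 1, the 1 without Res499 replicate 2, where 2.05% of all regions were gained. For both groups together, the 1 became 0 over all deposited peaks, at 4607 peaks and under the strict rule, and 2 with 50% cover (5.91% of all regions lost). Sox9 reversed over all deposited peaks, where the share of B16_IFNg and Res499 libraries with the region minus that of B16_untreated was -0.167, against 0.833. The cause of these changes was not tested. For Res499 against B16_untreated the 1 site with non-overlapping ranks (Zeb1) became 0 by fold, and 0 at 4607 peaks, where 3 lists lack the site and it was not compared. Leaving out libraries gave 0 to 2 for B16_IFNg against B16_untreated, 1 to 2 for Res499 against B16_untreated and 0 to 1 for Res499 against B16_IFNg. The highest counts came without B16_IFNg replicate 1, Res499 replicate 1 and B16_IFNg replicate 1. Of all regions 19.8%, 22.1% and 18.8% did not overlap there, against 10.1%, 11.8% and 10.6% with every library kept. Leaving out libraries gave rank differences from -271.8 to 1199.7 at the Snai2 end and from -393.3 to 1192.7 at the Hnrnpul1 promoter, both reversed without B16_untreated replicate 3 alone. The 10 regions near the genes were 23 over all deposited peaks, 5 at 4607 peaks and 5 within 10 kb.

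The labels do not tell whether replicate numbers pair the samples. Same-numbered libraries had correlations of rank deviations between -0.03 and 0.08, and differently numbered ones between -0.08 and 0.05. In every group replicate 3 was of the long fragment class and replicate 2 of the short class. With the replicate block the Zeb1 difference had an exact permutation p of 0.222, adjusted p = 0.989, and 0 member sites passed. Over all alternatives adjusted p for the Zeb1 site lay between 0.938 and 1.0. Rank comparisons over all deposited peaks were not run, since ranks in lists of unequal length do not compare. Summits of 8 to 15 fragments limit the faint sites: absence of a call there shows only that it was not detectable at this depth.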
